A study of Mus musculus with 13 samples.

Results

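Imprinted genes were followed across mouse medulloblastomas driven by SmoM2, a constitutively active form of the Hedgehog transducer Smoothened, with and without a knockout of Kmt2d, which encodes a histone H3 lysine 4 methyltransferase. The members were the rows of the count table whose symbol stood in a list of 44 imprinted genes. Of these, 43 were found among the 53653 genes of the table, and Rtl1 was not analysed here. Imprinting means that a gene is transcribed mainly from the allele inherited from 1 parent. The choice of allele is set by DNA methylation laid down in the germline at control regions, each of which governs a cluster of neighbouring genes, so that members of a cluster often share their control. Several imprinted genes act on fetal growth, on exit from the cell cycle and on neuronal function, and the brain is among the tissues where many of them are active. The counts do not separate the parental alleles, so the level of a gene is the sum of both.

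RNA was sequenced from 13 libraries in 3 groups, and every library carried SmoM2. Control primaries (n = 5, numbered 3 to 7) were cerebellar tumours with SmoM2 overexpression and no Kmt2d knockout, from mice of 6 to 16 weeks. KO primaries (n = 4, numbered 3, 4, 6 and 7) were cerebellar tumours of SmoM2-Kmt2dCf/Cf mice, labelled Kmt2d KO, at 5 to 8 weeks, and KO metastases (n = 4, with the same numbers) were spinal cord tumours of that genotype and age range. GFP-positive cells were sorted, and RNA came from 1 to 5 M cells per primary and 0.1 to 3 M per metastasis. The driver of SmoM2 and of the deletion is not stated here, nor whether libraries of a group came from separate mice, and p-values measure the spread between these libraries, which may be technical. Age range and genotype cannot be told apart.

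Between 23.5 and 41.4 M counts were assigned to genes per library. Kmt2d stood at 78.1 to 175 CPM (counts scaled to the size of the library) in control primaries, 91.7 to 168 in KO primaries and 104.7 to 131 in KO metastases. These are counts over the whole gene, and with the deleted part not stated they do not check the knockout. All 9 markers of granule cell precursors, the labelled cell type, were present, with summed levels of 1958 to 2638 CPM in control primaries, 2807 to 3508 in KO primaries and 2759 to 4144 in KO metastases. At an adjusted p below 0.05 in edgeR, 1 of the 9 was higher in KO primaries than in control primaries. In KO metastases 2 were higher, and 0 were lower in either group. Mycn, also among the 9, did not follow the sum, at 413 to 714, 409 to 701 and 314 to 638 CPM in the 3 groups. Olfactory and vomeronasal receptor genes, which mark the sensory epithelia of the nose, summed to 349 to 1752 CPM in 4 libraries (control primary 3, KO primary 7 and KO metastases 6 and 7) and to 6.08 to 83.5 CPM in the other libraries. Some low members unrelated to these receptors were highest in these libraries too, as given below. The source of these counts was not tested, and they are no evidence of nasal cells. Control primaries 5, 6 and 7 had Xist, the RNA of the inactive X chromosome, at 324 to 509.5 CPM, against at most 1.02 CPM in the other 10 libraries. Markers of differentiating granule neurons summed to 2110 to 3447 CPM in control primaries, 1002 to 1153 in KO primaries and 1087 to 1914 in KO metastases. Mature oligodendrocyte markers stood apart in KO metastases 6 and 7, at 1817 and 781 CPM against 66.0 to 391 elsewhere, and their part in the results below was not tested. KO primary 7 has a side in its title (L) that differs from its location label (right hemisphere). In such bulk samples, fewer cells of a type and less RNA per cell cannot be told apart.

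A small set of imprinted genes differed between the Kmt2d knockout groups and the control primaries, and most did not pass the test. Peg12, Grb10, Cdkn1c and Begain were higher in both KO groups than in the control primaries, and Nnat was lower in both. In the main edgeR fit H19 (higher) and Blcap (lower) passed the test only in the metastases. That difference between the 2 comparisons was not tested, and limma voom, run with quality weights for libraries throughout, called both genes in KO primaries too. Of 40 members that passed the filter on low counts, 5 were called in KO primaries against control primaries, 4 higher and 1 lower, where 2.93% of all 22265 genes tested were called (1.15% higher and 1.78% lower). In KO metastases against control primaries 7 of the 40 were called, 5 higher and 2 lower, against 3.08% of all genes (1.06% higher and 2.02% lower). Both comparisons use the same control libraries. The members were chosen with earlier results of these data known, so these shares are no test of imprinted genes as a class. A call is an adjusted p below 0.05 in the edgeR fit of all 13 libraries. The median log2 change of the 40 members was -0.09 in KO primaries and -0.04 in KO metastases, close to those of all genes, -0.05 and -0.04. At an unadjusted p below 0.05 there were 14 and 13 members, against 13.6% and 14.2% of all genes. Without control primary 7 the metastasis count fell to 4 of 40 members, where 428 of 21918 genes were called. Without the 3 controls with Xist both counts were 2 of 41 members (Peg12 and Grb10), where 138 and 100 of 28131 genes were called.

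The filter bears on these counts. Of the 40 members, 33 reached its cutoff of 0.292 CPM in at least 4 control primaries, and 7 (Ddc, Slc22a18, Ascl2, H19, Dlk1, Mirg and Asb4) reached it in fewer. H19 reached it in 1 control primary and in all 8 KO libraries. Magel2, Phlda2 and Dio3 did not pass: Magel2 had 37 counts in 4 libraries, Phlda2 20 counts in 3 and Dio3 8 counts in 2. A count of 0 allows up to 3 counts, which is 0.0724 to 0.127 CPM depending on the library.

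**Figure D1:**
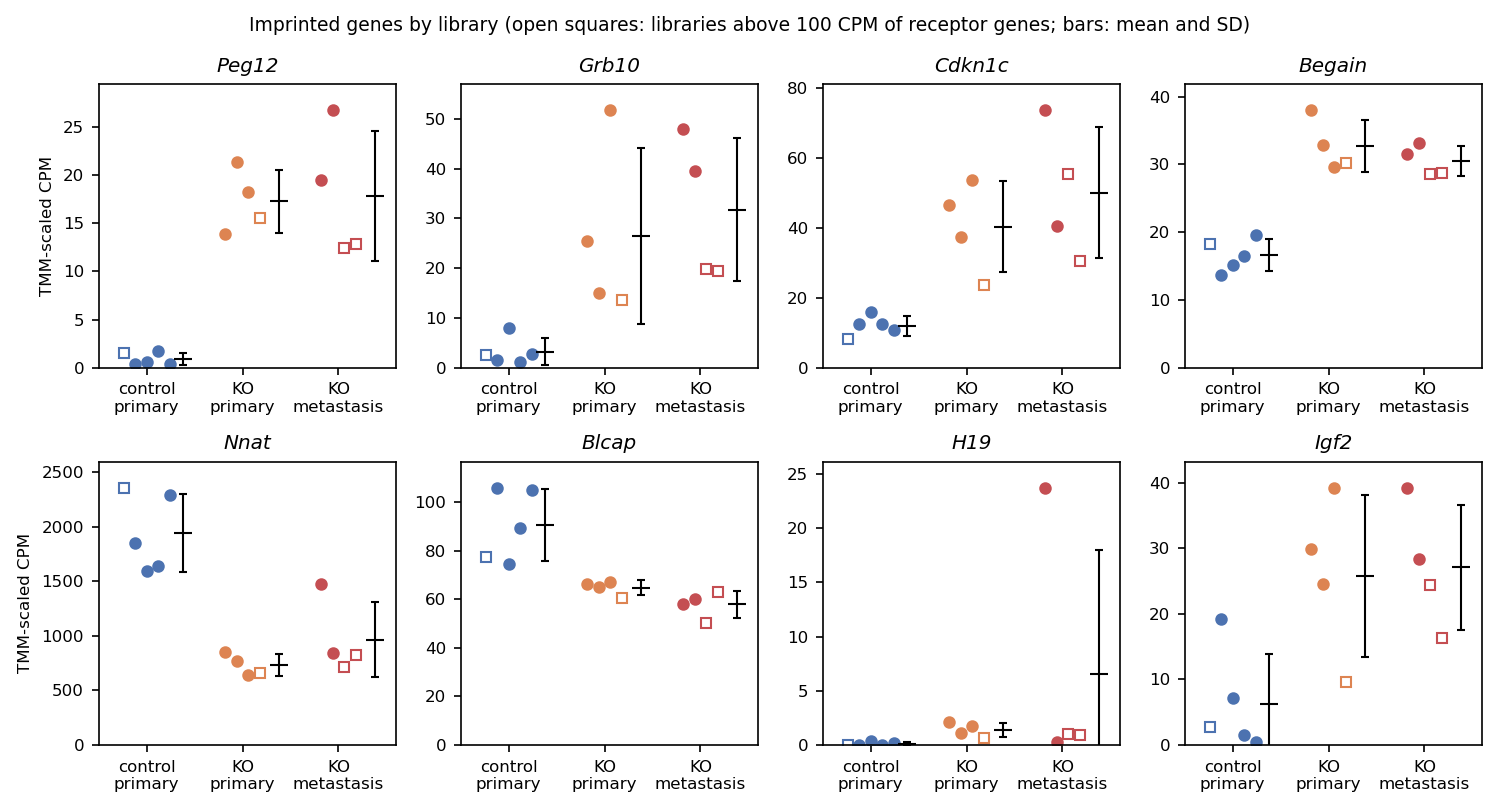
Level (TMM-scaled CPM, vertical axis from 0) of the 7 called members and Igf2 in each library of the 3 groups; bars give mean and SD, cut at 0, and open squares are the libraries above 100 CPM of receptor genes. The 8 KO libraries lie above every control primary for Peg12, Grb10, Cdkn1c and Begain and below every control primary for Nnat and Blcap, while H19 in KO metastases rests on 1 library at 23.7 CPM.

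The promoters of the called members are shown because imprinted promoters are often rich in CG, the dinucleotide that carries the methylation. RefSeq entries on GRCm38.p6, from 250 bases before to 50 after the start, matched 38 members, and the called genes Cdkn1c and H19 are named only. The 300 bases are written 5′ to 3′ on the gene's strand with each CG in capitals. Peg12 (minus strand, chr7:62464461-62464760) holds 12 CG, Grb10 (minus strand, chr11:12037371-12037670, 1 of 2 starts in the table) 45, and Begain (minus strand, chr12:109068168-109068467, 1 of 5 starts) 46. Nnat (plus strand, chr2:157559828-157560127) and Blcap (minus strand, chr2:157566312-157566611), whose transcripts overlap on opposite strands, hold 17 each.
Peg12: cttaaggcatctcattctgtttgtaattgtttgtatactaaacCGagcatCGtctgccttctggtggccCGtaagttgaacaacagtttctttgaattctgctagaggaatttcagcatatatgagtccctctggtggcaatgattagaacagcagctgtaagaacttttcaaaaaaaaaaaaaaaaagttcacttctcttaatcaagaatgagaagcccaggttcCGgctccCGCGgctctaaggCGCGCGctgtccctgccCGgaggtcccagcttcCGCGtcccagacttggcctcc
Grb10: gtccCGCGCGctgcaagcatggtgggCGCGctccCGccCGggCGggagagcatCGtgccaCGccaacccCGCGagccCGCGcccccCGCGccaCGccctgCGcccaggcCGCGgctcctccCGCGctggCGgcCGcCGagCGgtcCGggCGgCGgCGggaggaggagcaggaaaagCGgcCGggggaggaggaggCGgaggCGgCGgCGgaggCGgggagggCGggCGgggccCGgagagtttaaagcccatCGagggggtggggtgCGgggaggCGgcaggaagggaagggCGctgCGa
Begain: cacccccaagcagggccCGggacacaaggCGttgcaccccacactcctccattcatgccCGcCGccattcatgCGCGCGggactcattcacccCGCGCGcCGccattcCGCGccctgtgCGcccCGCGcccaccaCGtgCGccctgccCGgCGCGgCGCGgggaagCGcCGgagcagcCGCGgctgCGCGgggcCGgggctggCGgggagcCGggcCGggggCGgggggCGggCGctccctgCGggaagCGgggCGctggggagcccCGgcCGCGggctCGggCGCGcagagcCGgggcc
Nnat: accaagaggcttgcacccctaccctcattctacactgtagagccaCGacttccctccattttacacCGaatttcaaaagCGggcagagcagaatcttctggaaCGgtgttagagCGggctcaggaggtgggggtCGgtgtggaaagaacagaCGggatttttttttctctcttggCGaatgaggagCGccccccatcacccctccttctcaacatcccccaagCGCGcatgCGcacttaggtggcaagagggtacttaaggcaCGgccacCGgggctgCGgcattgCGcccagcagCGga
Blcap: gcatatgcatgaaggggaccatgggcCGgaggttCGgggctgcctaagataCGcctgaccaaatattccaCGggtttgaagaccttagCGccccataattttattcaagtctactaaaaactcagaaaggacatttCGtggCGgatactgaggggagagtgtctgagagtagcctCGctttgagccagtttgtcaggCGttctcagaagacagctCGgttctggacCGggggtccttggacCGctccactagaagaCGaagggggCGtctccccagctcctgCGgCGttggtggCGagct
Over the 38 members with an entry, taken with 1 start each, the median was 15 CG, against 7 in all 32851 promoters of the table. At least 20 CG were held by 31.58% of the members' promoters and 26.49% of all promoters. The letters TGCCGC, the motif read by the imprint guardian ZFP57 when methylated, were searched on both strands and occurred in 8 of 38 members' promoters (21.05%), Grb10 and Nnat included, against 11.61% of all promoters. The GLI motif GACCACCCA, searched likewise, occurred in 0 of 38, against 0.253% of all promoters. TGCCGC itself holds a CG, and the part of the members' higher CG count in its share was not tested. A match is a string of letters and no evidence of binding.

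Peg12 showed the largest change of any member tested in KO primaries. It encodes a FRAT-like protein that binds the kinase GSK3 and is expressed from the paternal allele (GRCm38 chr7:62461871-62464510, a gene without introns at the end of the Prader-Willi cluster). Levels are given in order of library number, 3 to 7 for control primaries and 3, 4, 6 and 7 for both KO groups, as CPM scaled by TMM factors. Peg12 stood at 1.52, 0.385, 0.608, 1.74 and 0.350 CPM in control primaries, at 13.9, 21.4, 18.2 and 15.6 in KO primaries and at 19.4, 26.7, 12.4 and 12.8 in KO metastases. The lowest KO library was thus at 12.4 CPM and the highest control primary at 1.74, so the groups did not overlap. The log2 change was 4.24 (SE 0.465, adjusted p = 0.000332) in KO primaries and 4.28 (SE 0.466, adjusted p = 0.000355) in KO metastases, by edgeR. Peg12 remained called in all 20 alternative analyses of each comparison, with log2 changes of 4.02 to 4.62 and 4.03 to 4.92. The raw counts behind these levels were 13 to 54 per control primary and 354 to 1007 per KO library.

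The neighbours of Peg12 did not pass the test. Mkrn3, a RING-finger ubiquitin ligase gene 41.7 kb away, stood at 13.6, 38.2, 18.5, 16.4 and 14.7 CPM in control primaries, 15.1, 16.9, 14.2 and 13.2 in KO primaries and 18.7, 16.5, 9.17 and 10.3 in KO metastases, with control primary 4 far above the rest. Its log2 changes against control primaries were -0.45 (SE 0.308, adjusted p = 0.637) and -0.57 (SE 0.309, adjusted p = 0.463). Ndn, which encodes the neuronal growth suppressor necdin and lies 111.6 kb away, ranged from 35.96 to 63.4, 35.2 to 61.8 and 37 to 87.2 CPM in the 3 groups, with log2 changes of -0.22 and 0.03. Magel2, between Mkrn3 and Ndn, had at most 15 counts in any library. Farther along the cluster, Snrpn, a spliceosomal protein gene, ranged from 63.3 to 91.9 CPM over all 13 libraries with log2 changes of -0.11 and -0.10. Ube3a, the ubiquitin ligase gene lost in Angelman syndrome and expressed from the maternal allele in neurons, ranged from 97.6 to 207 CPM with log2 changes of -0.17 and -0.02. Ube3a overlaps Snhg14 on the other strand, and with the strand setting of the counting not given their reads cannot be told apart. Of the 5 members tested in this cluster, 1 was called in each comparison with control primaries. The plot of log2 change against distance sets Peg12 beside its neighbours.

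**Figure D2:**
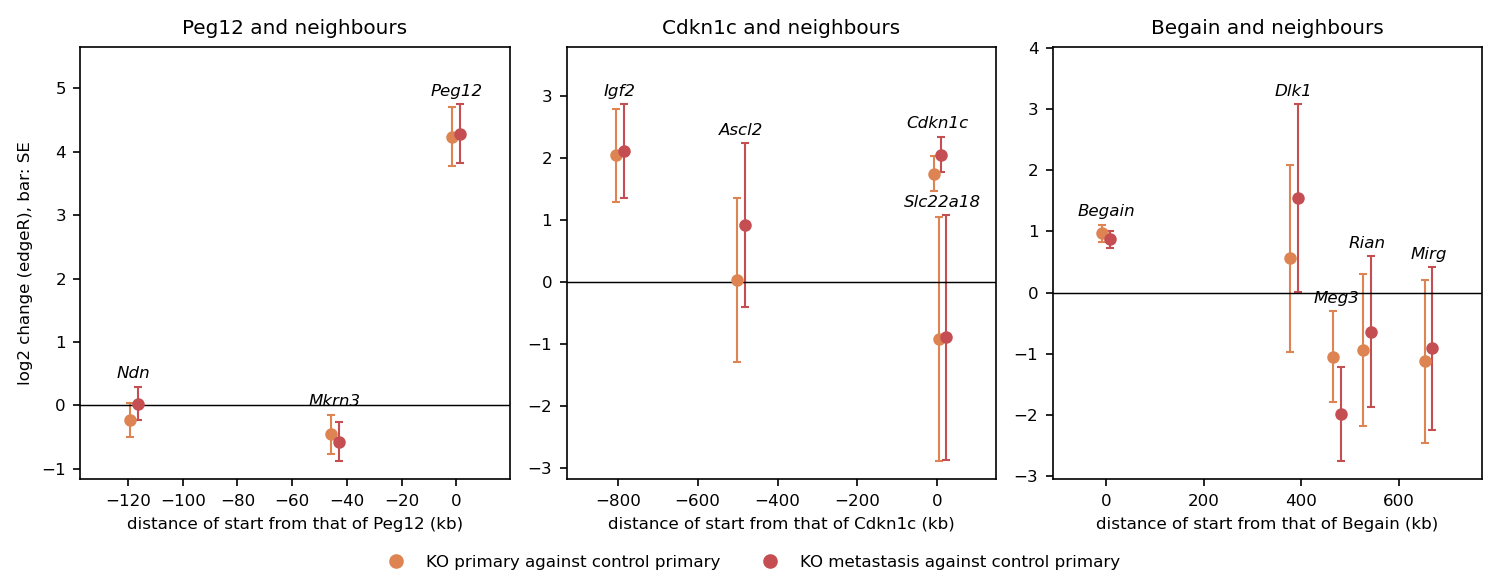
Log2 change against control primaries (edgeR, vertical axis; bars are SE) of Peg12, Cdkn1c and Begain and of tested neighbours, by the distance between gene starts in kb (horizontal axis). Peg12 stands at 4.24 and 4.28 while Mkrn3 and Ndn lie between -0.57 and 0.03, and the SE bars of Slc22a18, Ascl2, Rian and Mirg cross 0.

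Grb10 encodes an adaptor that dampens signalling from insulin and IGF receptors, and its allele of origin depends on the isoform and tissue (chr11:11930508-12038683). Its level was 2.62, 1.60, 7.94, 1.06 and 2.85 CPM in control primaries, 25.4, 15.04, 51.7 and 13.6 in KO primaries and 48.05, 39.5, 19.8 and 19.5 in KO metastases. Every KO library was at 13.6 CPM or more and every control primary at 7.94 or less. Grb10 had a log2 change of 3.05 (SE 0.568, adjusted p = 0.00973) in KO primaries and 3.31 (SE 0.573, adjusted p = 0.00612) in KO metastases, by edgeR. Grb10 was called in all 20 alternatives of each comparison, with log2 changes of 2.50 to 3.76 and 3.04 to 4.04, although the KO primaries spread from 13.6 to 51.7 CPM. Its neighbour Ddc, the gene of aromatic L-amino acid decarboxylase, 32.4 kb away, did not follow. Ddc stood at 3.42, 0.859, 0.608, 0.193 and 0.108 CPM in control primaries, 0.391, 0.136, 0.846 and 2.68 in KO primaries and 0.611, 0.637, 1.65 and 1.09 in KO metastases, with log2 changes of -0.03 (SE 0.965, adjusted p = 0.998) and -0.05 (SE 0.966, adjusted p = 0.993). In each group the highest Ddc level was in a library above 100 CPM of receptor genes, and the part of those transcripts in the result was not tested.

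Igf2, a growth factor gene of the paternal allele, varied widely among the control primaries. It stood at 2.81, 19.2, 7.15, 1.55 and 0.458 CPM in control primaries, 29.9, 24.6, 39.2 and 9.56 in KO primaries and 39.3, 28.4, 24.4 and 16.3 in KO metastases. Control primary 4 lay above KO primary 7 and KO metastasis 7, so the groups overlapped. The log2 changes, 2.05 (SE 0.754, adjusted p = 0.203) and 2.12 (SE 0.756, adjusted p = 0.186), did not pass the test. Without control primary 4 the same values were 3.13 (adjusted p = 0.0377) and 3.22 (adjusted p = 0.0314). Without the 3 controls with Xist they were 1.22 (adjusted p = 0.852) and 1.29 (adjusted p = 0.843). With limma voom Igf2 was called in both comparisons (adjusted p = 0.00543 and 0.0203), and with DESeq2 in KO metastases alone (adjusted p = 0.0414).

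H19, a noncoding RNA of the maternal allele that lies 72.6 kb from Igf2 and restrains growth, was near its detection limit in control primaries. Its level was 0.0380, 0.0296, 0.380, 0 and 0.215 CPM there, 2.11, 1.09, 1.75 and 0.650 in KO primaries and 23.7, 0.318, 1.02 and 0.949 in KO metastases. KO primaries did not overlap control primaries, and KO metastasis 4, at 0.318 CPM, lay below control primary 5. H19 had a log2 change of 3.38 (SE 1.22, adjusted p = 0.193) in KO primaries and 5.59 (SE 1.30, adjusted p = 0.0329) in KO metastases, by edgeR. In KO primaries H19 was called in 1 of 19 alternatives, limma voom (adjusted p = 0.00901). The call in KO metastases rested on KO metastasis 3, with 661 of that group's counts where the others had 12 to 33: without it the log2 change was 2.49 (adjusted p = 0.406). It was lost too without control primaries 4 (adjusted p = 0.0943), 6 (adjusted p = 0.0721) or 7 (adjusted p = 0.071), and without the 3 controls with Xist (adjusted p = 0.236). KO metastasis 3 also had the highest mitochondrial share of counts, 2.06%, against 0.633% to 0.876% in the other libraries, and the part of this in the result was not tested.

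Igf2r, which encodes the receptor that clears IGF2, and Airn, the noncoding RNA transcribed from the other strand of Igf2r, were not called. Igf2r stood at 11.9, 16.7, 16.6, 12.6 and 10.1 CPM in control primaries, 27.5, 23.3, 14.6 and 20.02 in KO primaries and 20.1, 19.5, 18.1 and 11.02 in KO metastases, with log2 changes of 0.65 (SE 0.234, adjusted p = 0.189) and 0.34 (SE 0.234, adjusted p = 0.616). Airn stood at 3.08, 4.35, 8.51, 2.99 and 2.61 CPM in control primaries, 9.32, 7.67, 6.69 and 8.56 in KO primaries and 14.8, 7.53, 8.604 and 5.81 in KO metastases, with log2 changes of 0.90 (SE 0.359, adjusted p = 0.251) and 1.09 (SE 0.359, adjusted p = 0.141). Control primary 5 was the highest control for Airn, and without it the log2 changes were 1.29 (adjusted p = 0.0422) and 1.52 (adjusted p = 0.02). Reads of this overlapping pair cannot be told apart. Plagl1, a zinc-finger regulator of other imprinted genes, overlapped between all groups, at 5.36, 10.4, 10.5, 5.79 and 6.78 CPM in control primaries, 15.5, 9.66, 7.83 and 5.85 in KO primaries and 13.3, 16.98, 7.80 and 8.06 in KO metastases. Its log2 changes were 0.32 (SE 0.334, adjusted p = 0.847) and 0.57 (SE 0.334, adjusted p = 0.514).

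Cdkn1c encodes the cyclin-dependent kinase inhibitor p57KIP2, which holds cells out of the cycle, and is expressed from the maternal allele (chr7:143458339-143461050). It stood at 8.21, 12.5, 16, 12.4 and 10.8 CPM in control primaries, at 46.6, 37.5, 53.5 and 23.5 in KO primaries and at 73.6, 40.6, 55.5 and 30.6 in KO metastases. The highest control primary, at 16 CPM, was below the lowest KO library, KO primary 7 at 23.5 CPM. The log2 change was 1.75 (SE 0.283, adjusted p = 0.00417) in KO primaries and 2.06 (SE 0.285, adjusted p = 0.00157) in KO metastases, by edgeR. The call held in every fit that left out 1 library. It was lost without the 3 controls with Xist, where the log2 changes were 2.01 (adjusted p = 0.112) and 2.34 (adjusted p = 0.0797) with 2 control primaries left. Without the 4 libraries rich in receptor genes the log2 changes were 1.84 and 2.16, both called.

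The other listed members of the Cdkn1c cluster were near the detection limit in most libraries. Kcnq1ot1, the noncoding control RNA of the cluster, which was not among the 44, stood at 275 ± 112 CPM (SD, n = 5) in control primaries, 214 ± 51.6 (SD, n = 4) in KO primaries and 237 ± 49.3 (SD, n = 4) in KO metastases, with log2 changes of -0.36 (SE 0.273, adjusted p = 0.694) and -0.21 (SE 0.273, adjusted p = 0.884). Cd81, Tssc4 and Nap1l4 of the same region, from 108.5 to 463 CPM over all libraries, were not called in either comparison. Slc22a18, a membrane transporter gene 12.7 kb away, stood at 2.32, 0.118, 0, 0 and 0.188 CPM in control primaries, 0, 0, 0.185 and 0.921 in KO primaries and 0, 0, 0.492 and 0.633 in KO metastases. Its highest levels in each group were in libraries above 100 CPM of receptor genes, and its log2 changes of -0.91 (SE 1.97, adjusted p = 0.959) and -0.89 (SE 1.97, adjusted p = 0.959) had SEs wider than themselves. Ascl2, a basic helix-loop-helix factor gene, reached at most 0.646 CPM, with log2 changes of 0.04 and 0.93. Phlda2, a growth suppressor of the placenta, had a count in control primary 3, KO primary 4 and KO primary 7 only.

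Begain, which encodes a protein associated with the postsynaptic scaffold and lies beside the Dlk1-Meg3 cluster (chr12:109032187-109068217) was even within each group. It stood at 18.3, 13.7, 15.2, 16.5 and 19.6 CPM in control primaries, at 38, 32.9, 29.7 and 30.2 in KO primaries and at 31.5, 33.2, 28.6 and 28.8 in KO metastases. All 8 KO libraries lay between 28.6 and 38 CPM and all 5 control primaries between 13.7 and 19.6. Its log2 change reached 0.97 (SE 0.140, adjusted p = 0.00192) in KO primaries and 0.87 (SE 0.140, adjusted p = 0.00394) in KO metastases, by edgeR. It held in each fit without 1 library and was lost without the 3 controls with Xist, at log2 changes of 1.11 (adjusted p = 0.0601) and 1.04 (adjusted p = 0.0909).

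The genes of the Dlk1-Meg3 cluster itself, 384.6 kb and more from Begain, did not pass the test. Dlk1, a noncanonical Notch ligand gene of the paternal allele, stood at 0.608, 0.0592, 0.304, 0.0322 and 0 CPM in control primaries, 0.208, 0, 0.106 and 0.867 in KO primaries and 1.04, 0, 0.737 and 0.575 in KO metastases, with log2 changes of 0.56 (SE 1.52, adjusted p = 0.968) and 1.54 (SE 1.53, adjusted p = 0.807). Meg3, a noncoding RNA of the maternal allele, ranged from 1.09 to 22.1 CPM in control primaries, 1.88 to 10.2 in KO primaries and 0.690 to 3.16 in KO metastases, with log2 changes of -1.04 (SE 0.741, adjusted p = 0.661) and -1.98 (SE 0.772, adjusted p = 0.239). Rian and Mirg, which host small nucleolar RNAs and microRNAs, were led by single libraries. Rian reached 15.9 CPM in control primary 3, 5.96 in KO primary 7 and 5.90 in KO metastasis 6, and was at 0.193 to 2.13 CPM in the other 10 libraries. Mirg reached 3.00 CPM in control primary 3 and 1.16 in KO primary 7, and was at 0.878 CPM or less in the others. Their log2 changes lay between -1.12 and -0.64, with SEs of 1.23 to 1.33. Dio3, the gene of the deiodinase that inactivates thyroid hormone, had 1 count in control primary 3 and 7 counts in KO metastasis 7.

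**Figure D3:**
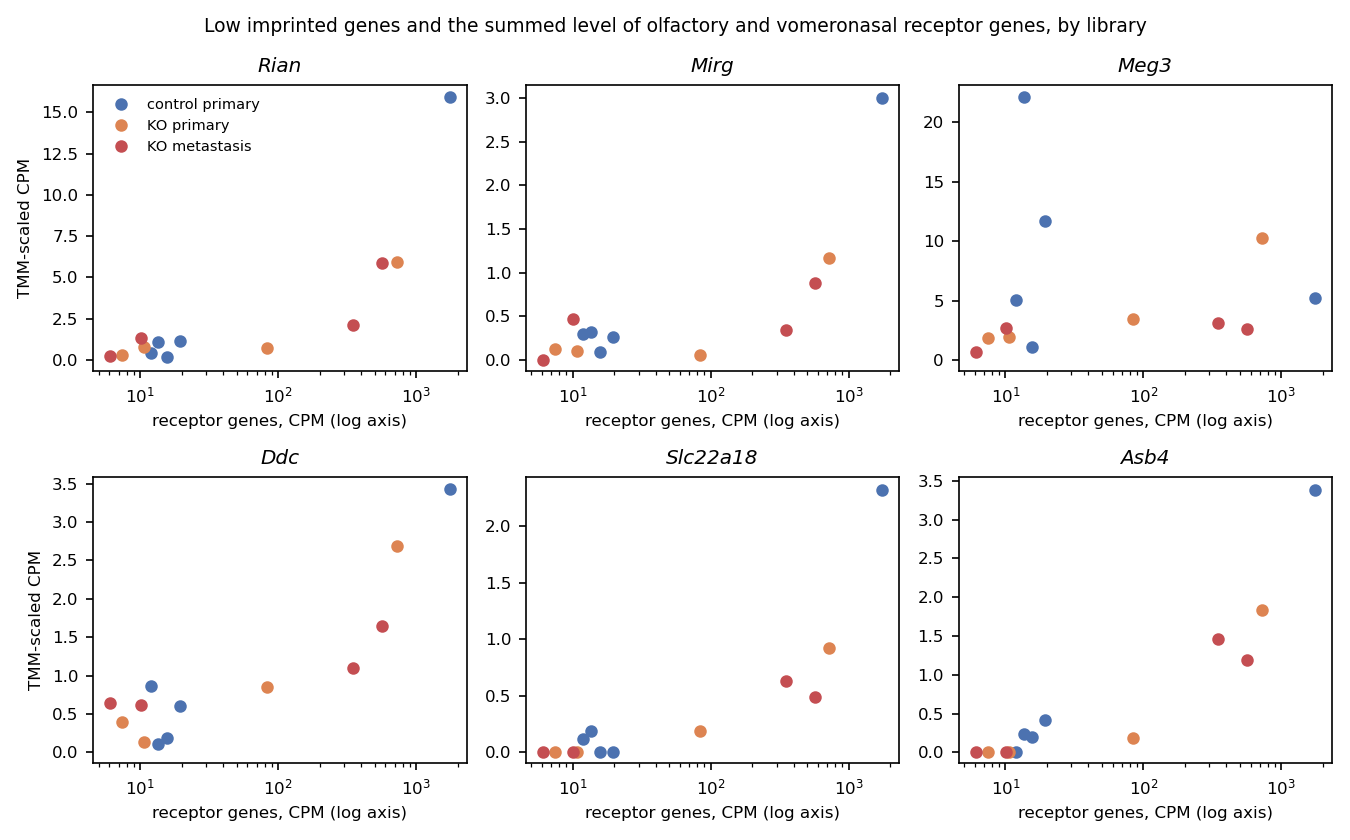
Level (TMM-scaled CPM) of 6 low members against the summed CPM of olfactory and vomeronasal receptor genes (log axis), 1 point per library. Rian, Mirg, Ddc, Slc22a18 and Asb4 were highest in control primary 3, which held the most receptor counts, while Meg3 was highest in control primary 7.

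In each of the 3 groups Rian, Mirg, Ddc, Slc22a18 and Asb4 were highest in a library rich in receptor genes. Meg3 was highest in such a library in both KO groups, but in control primaries it was highest in control primary 7. Dlk1 was highest in such a library in control primaries and KO primaries, but in KO metastases it was highest in KO metastasis 3. Rian, Mirg, Ddc, Slc22a18 and Asb4, chosen after their values were seen, together summed to 28.0 CPM in control primary 3, 12.6 in KO primary 7 and 10.1 at most in KO metastases. The calls for Peg12, Grb10, Cdkn1c and Begain stood in both comparisons without those 4 libraries, so that the change in these genes was measured in the remaining 9 as well.

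Nnat encodes neuronatin, a small membrane proteolipid of neurons and endocrine cells expressed from the paternal allele, and it was the most abundant member (chr2:157560078-157562522, within an intron of Blcap on the other strand). It stood at 2359, 1849, 1596, 1642 and 2287 CPM in control primaries, at 856, 772, 643 and 659.6 in KO primaries and at 1478, 842, 718 and 825 in KO metastases. Every KO library was below every control primary, KO metastasis 3 being the nearest. The log2 change was -1.41 (SE 0.211, adjusted p = 0.00254) in KO primaries and -1.01 (SE 0.208, adjusted p = 0.0169) in KO metastases, by edgeR. Nnat made up 54.0% to 67.8% of the summed level of all 43 members in control primaries, 33.8% to 38.9% in KO primaries and 36.9% to 51.8% in KO metastases. Without Nnat the members summed to 1351 ± 149 CPM (SD, n = 5) in control primaries, 1288 ± 47.6 (SD, n = 4) in KO primaries and 1312 ± 113 (SD, n = 4) in KO metastases, ranges that overlapped.

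The lower Nnat level in KO primaries held in each fit without 1 library, and without the 3 controls with Xist it was -1.45 (adjusted p = 0.058). In KO metastases the call was less stable. It was lost without control primary 4 (adjusted p = 0.051), control primary 7 (adjusted p = 0.0591), or KO metastasis 4, 6 or 7 (adjusted p = 0.0684, 0.0746 and 0.0594). Without the 4 libraries rich in receptor genes the log2 change in KO metastases was -0.66 (adjusted p = 0.127), and without the 3 controls with Xist -1.01 (adjusted p = 0.243). Of 8 markers of differentiating granule neurons, 6 were called lower in KO primaries and 4 in KO metastases, and none was at 0 in all libraries of a group. Rbfox3, also among the 8, did not go with them, at 166 to 239 CPM in control primaries, 236 to 288 in KO primaries and 224 to 310 in KO metastases. The part of those cells in the Nnat result was not tested.

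Blcap, the host gene of Nnat, had smaller differences of the same sign. It stood at 77.5, 106, 74.6, 89.3 and 105 CPM in control primaries, 66.3, 65.2, 67.3 and 60.5 in KO primaries and 58.1, 60.3, 50.2 and 62.95 in KO metastases. Neither KO group overlapped the control primaries. Its log2 change came to -0.48 (SE 0.133, adjusted p = 0.0758) in KO primaries and -0.64 (SE 0.134, adjusted p = 0.0179) in KO metastases, by edgeR. The call in KO metastases was lost without control primary 4 (adjusted p = 0.102), 6 (adjusted p = 0.0762) or 7 (adjusted p = 0.0899) and without KO metastasis 3, 4 or 6 (adjusted p = 0.0892, 0.0575 and 0.131). Without control primary 3 the difference in KO primaries was called (adjusted p = 0.0298). In KO primaries it was called in 6 of 20 alternatives, DESeq2 (adjusted p = 0.00116) and limma voom (adjusted p = 0.00737) included. The call in KO metastases was lost also without the libraries rich in receptor genes (adjusted p = 0.052) and without the controls with Xist (adjusted p = 0.514). The ratio of Nnat to Blcap was 17.4 to 30.4 in control primaries, 9.56 to 12.9 in KO primaries and 13.1 to 25.4 in KO metastases, from reads that cannot be told apart where the genes overlap.

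**Figure D4:**
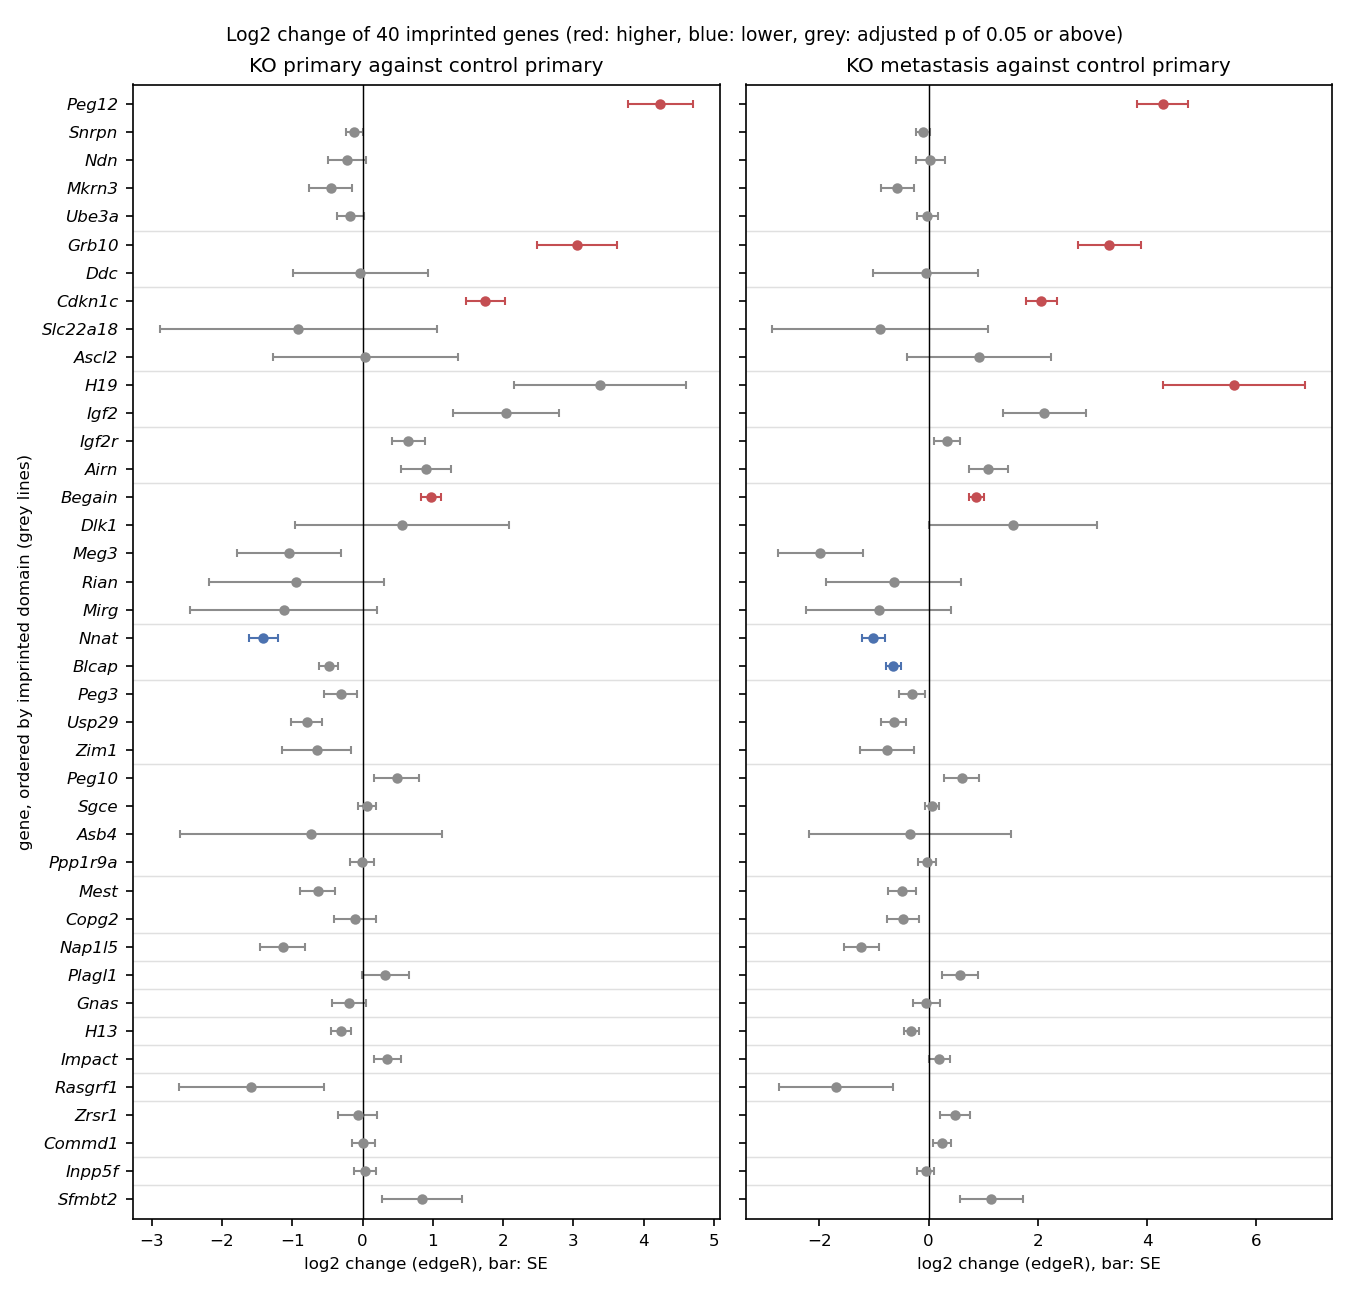
Log2 change (edgeR, horizontal axis; bars are SE) of the 40 members tested, ordered by imprinted cluster, in KO primaries (left) and KO metastases (right) against control primaries; called members are red (higher) or blue (lower). Peg12, Grb10, Cdkn1c, Begain and Nnat are coloured in both panels, and H19 and Blcap in the right panel alone.

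The Peg3 cluster held no call. Peg3, a zinc-finger transcription factor gene, stood at 107, 229, 172, 257 and 170.3 CPM in control primaries, 166, 154, 127 and 157 in KO primaries and 124, 219, 126 and 138 in KO metastases, with log2 changes of -0.31 (SE 0.236, adjusted p = 0.711) and -0.30 (SE 0.236, adjusted p = 0.689). Usp29, a ubiquitin-specific protease gene whose start lies 0.1 kb from that of Peg3, stood at 23.6, 25.5, 31.8, 27.4 and 22.3 CPM in control primaries, 10.4, 13.3, 16.4 and 20.1 in KO primaries and 20.6, 10.7, 17.7 and 17.9 in KO metastases. All 8 KO libraries for Usp29 were below every control primary, but its log2 changes of -0.79 (SE 0.224, adjusted p = 0.0817) and -0.64 (SE 0.224, adjusted p = 0.171) did not pass the test. Usp29 was called in KO primaries without KO primary 7 (adjusted p = 0.0472) and without the 4 libraries rich in receptor genes (adjusted p = 0.0451). DESeq2 called it in KO primaries (adjusted p = 0.00805), and limma voom in both KO groups (adjusted p = 0.00224 and 0.0343). Zim1, a zinc-finger gene of the maternal allele, was low and overlapped between groups, at 3.57, 4.77, 2.17, 1.71 and 2.13 CPM in control primaries, 1.80, 1.39, 0.635 and 3.49 in KO primaries and 0.862, 1.78, 1.83 and 2.27 in KO metastases, with log2 changes of -0.65 (SE 0.492, adjusted p = 0.702) and -0.77 (SE 0.494, adjusted p = 0.58).

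The Peg10 cluster likewise held no call, and its 4 members overlapped between groups. Peg10, derived from a retrotransposon, stood at 1.60, 2.16, 2.39, 3.83 and 4.66 CPM in control primaries, 3.70, 3.94, 4.26 and 4.55 in KO primaries and 5.93, 3.37, 4.74 and 3.83 in KO metastases, with log2 changes of 0.49 (SE 0.318, adjusted p = 0.607) and 0.61 (SE 0.318, adjusted p = 0.44). Sgce, the epsilon-sarcoglycan gene that starts 0.1 kb from Peg10, stood at 93.4, 78.9, 78.8, 71.1 and 97.4 CPM in control primaries, 89.3, 103, 74.98 and 83.8 in KO primaries and 94.8, 83.1, 89.3 and 83.1 in KO metastases. Its log2 changes were 0.07 (SE 0.129, adjusted p = 0.956) and 0.06 (SE 0.129, adjusted p = 0.956). Ppp1r9a encodes neurabin, a scaffold of actin and protein phosphatase 1. It stood at 52.6, 65.1, 86.7, 72.8 and 92.8 CPM in control primaries, 58.99, 82.6, 71.1 and 80.6 in KO primaries and 86.1, 68.5, 66.2 and 69.5 in KO metastases, with log2 changes of -0.01 (SE 0.171, adjusted p = 0.994) and -0.03 (SE 0.171, adjusted p = 0.985). Asb4, an ankyrin-repeat and SOCS-box gene, stood at 3.38, 0, 0.418, 0.193 and 0.242 CPM in control primaries, 0, 0, 0.185 and 1.84 in KO primaries and 0, 0, 1.19 and 1.47 in KO metastases, so that its counts came mainly from the 4 libraries rich in receptor genes. Its log2 changes were -0.73 (SE 1.86, adjusted p = 0.966) and -0.34 (SE 1.85, adjusted p = 0.984).

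Mest, which encodes a hydrolase-like enzyme, and Copg2, a coatomer subunit gene that overlaps Mest on the other strand, were not called. Mest stood at 45.7, 69.4, 30.2, 45.1 and 49.6 CPM in control primaries, 32.9, 37.2, 22.4 and 30.8 in KO primaries and 28.5, 48.1, 22.9 and 37.5 in KO metastases, with log2 changes of -0.64 (SE 0.254, adjusted p = 0.251) and -0.49 (SE 0.253, adjusted p = 0.433). Copg2 stood at 41.9, 53.4, 61.7, 88.8 and 96.03 CPM in control primaries, 69.5, 67.5, 57.3 and 59.8 in KO primaries and 22.2, 67.4, 61.7 and 46.3 in KO metastases, with log2 changes of -0.11 (SE 0.295, adjusted p = 0.969) and -0.47 (SE 0.298, adjusted p = 0.571). Both overlapped between groups, and KO metastasis 3 was the lowest of all libraries for Copg2.

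Nap1l5, a paternally expressed gene related to nucleosome assembly proteins that lies within Herc3 on the other strand, came close to the threshold. It stood at 48.1, 33.6, 22.7, 32 and 60.2 CPM in control primaries, 13.9, 16.4, 20.4 and 20.97 in KO primaries and 11.1, 10.3, 19.4 and 25.95 in KO metastases. KO primaries lay below all control primaries, and KO metastasis 7 overlapped them. The log2 changes were -1.14 (SE 0.319, adjusted p = 0.0803) and -1.24 (SE 0.321, adjusted p = 0.0546). Without control primary 5 it was called in both (adjusted p = 0.0405 and 0.0326), without KO metastasis 7 in the metastases (adjusted p = 0.0292), and without the libraries rich in receptor genes in both (log2 changes -1.13 and -1.78, adjusted p = 0.0481 and 0.0192). DESeq2 called it in both (adjusted p = 0.00759 and 0.00432), and limma voom in KO primaries (adjusted p = 0.0135).

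The members that stand alone or in pairs at other loci were not called, and all overlapped between the KO groups and the control primaries. Gnas, which encodes the stimulatory G protein alpha subunit, stood at 15.1, 17.5, 13.2, 22.9 and 21.8 CPM in control primaries, 15.1, 16.7, 21 and 10.5 in KO primaries and 18.2, 18.96, 21.9 and 11.1 in KO metastases, with log2 changes of -0.19 (SE 0.247, adjusted p = 0.901) and -0.04 (SE 0.247, adjusted p = 0.984). H13, a signal peptide peptidase gene, stood at 134, 171, 166, 144 and 152 CPM in control primaries, 154, 127, 97.8 and 116 in KO primaries and 137, 135, 107 and 114 in KO metastases, with log2 changes of -0.31 (SE 0.144, adjusted p = 0.362) and -0.31 (SE 0.144, adjusted p = 0.34). Impact, an inhibitor of the kinase GCN2, stood at 22.4, 32.6, 25.01, 24.1 and 29.4 CPM in control primaries, 29.7, 28.2, 37.5 and 41.3 in KO primaries and 23.6, 23.1, 38.8 and 36.97 in KO metastases, with log2 changes of 0.35 (SE 0.197, adjusted p = 0.497) and 0.20 (SE 0.197, adjusted p = 0.813). None of the 3 passed the test. Rasgrf1, a RAS exchange factor gene, stood at 4.34, 2.64, 0.684, 0.386 and 4.44 CPM in control primaries, 0.417, 0.408, 0.714 and 1.79 in KO primaries and 0, 0.265, 1.83 and 0.978 in KO metastases, with log2 changes of -1.58 (SE 1.03, adjusted p = 0.608) and -1.70 (SE 1.04, adjusted p = 0.544). Sfmbt2, which encodes a Polycomb-group protein, stood at 4.37, 0.267, 2.74, 1.16 and 0.861 CPM in control primaries, 3.15, 3.70, 2.43 and 4.14 in KO primaries and 3.63, 4.67, 5.09 and 3.25 in KO metastases, with log2 changes of 0.84 (SE 0.569, adjusted p = 0.63) and 1.15 (SE 0.569, adjusted p = 0.397). Both ranged widely among the control primaries, Rasgrf1 from 0.386 to 4.44 CPM and Sfmbt2 from 0.267 to 4.37.

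Zrsr1, a splicing-factor-like retrogene within Commd1 on the other strand, and Commd1 itself were not called. Zrsr1 stood at 3.12, 3.14, 4.41, 3.06 and 2.96 CPM in control primaries, 3.70, 3.84, 2.99 and 2.22 in KO primaries and 6.61, 4.99, 3.86 and 3.28 in KO metastases, with log2 changes of -0.07 (SE 0.277, adjusted p = 0.981) and 0.49 (SE 0.275, adjusted p = 0.488). Commd1 stood at 29.7, 24.97, 24.4, 24.1 and 18.5 CPM in control primaries, 21.5, 23.2, 30.2 and 23.2 in KO primaries and 34.1, 25.4, 31.3 and 24.4 in KO metastases, with log2 changes of 0.01 (SE 0.167, adjusted p = 0.995) and 0.24 (SE 0.167, adjusted p = 0.614). Inpp5f, an inositol phosphatase gene, stood at 60.1, 113, 82.6, 95.7 and 95.1 CPM in control primaries, 95.01, 86.6, 92.5 and 91.9 in KO primaries and 71.7, 94.6, 88.4 and 89.6 in KO metastases, with log2 changes of 0.04 (SE 0.159, adjusted p = 0.983) and -0.05 (SE 0.159, adjusted p = 0.972). The largest of these log2 changes was that of Zrsr1 in KO metastases, with control primary 5 inside the range of the KO metastases.

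By the allele known to be expressed, 3 of 20 tested members of the paternal allele were called in KO primaries (Peg12 and Begain higher, Nnat lower), 1 of 12 of the maternal allele (Cdkn1c, higher) and 1 of 8 whose allele depends on isoform or tissue (Grb10, higher), where 2.93% of all genes were called. In KO metastases the counts were 3 of 20, 2 of 12 and 2 of 8, against 3.08% of all genes. The median log2 changes in KO primaries were -0.000553, -0.48 and -0.02, and in KO metastases 0.13, -0.41 and -0.04. On the no-overlap measure, 5 members lay wholly above the control primaries in KO primaries (the 4 called and H19) and 4 wholly below (Nnat, Blcap, Usp29 and Nap1l5), against 3.57% and 3.85% of all genes tested and 7.42% for both directions. In KO metastases 4 lay wholly above and 3 wholly below, against 2.81% and 4.01% of all genes and 6.82% for both directions.

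Per kilobase of exon, which allows levels of different genes to be set side by side, Nnat led the members in every group, at 1064 CPM per kb in control primaries, 401 in KO primaries and 528 in KO metastases. Snrpn was next in each, at 38.4, 35.5 and 35.8 CPM per kb. Blcap followed in control primaries and KO primaries (29.7 and 21.3 CPM per kb), and Cdkn1c followed in KO metastases (24.6), above Blcap (19.02). In control primaries Cdkn1c stood at 5.88 CPM per kb, below Nap1l5 (21.3) and H13 (17.3). Peg12 was at 0.349 CPM per kb in control primaries and at 6.54 and 6.76 in KO primaries and KO metastases.

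KO metastases and KO primaries, which share the genotype and differ in site, were compared with each other as well. None of the 40 members was called by edgeR (0 by DESeq2 and 0 by limma voom), and 0 had an unadjusted p below 0.05 in edgeR, where 0.00449% of all genes were called and 3.23% had an unadjusted p below 0.05. The median log2 change of the members was 0.09, against -0.00375 of all genes. Peg12 differed by 0.05 (SE 0.435), Grb10 by 0.26 (SE 0.565), Cdkn1c by 0.31 (SE 0.295) and Begain by -0.10 (SE 0.147) on the log2 scale. Nnat was higher by 0.40 (SE 0.215) and H19 by 2.21 (SE 1.20) on the same scale. Without KO metastasis 3 these were 0.16 and -0.85. No member's KO groups were separated without overlap, where 1.72% of all genes were (0.683% higher and 1.04% lower in the metastases). These values do not show that the levels were equal at the 2 sites.

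Imprinted genes outside the list were called in part. Those taken here were also chosen with earlier results of these data known, so their share called was not tested. Of 36 further imprinted genes, 35 were in the table and 29 were tested, and the same 3 were called in both comparisons with control primaries, 1 higher and 2 lower, or 10.3% of those tested, against 2.93% and 3.08% of all genes. Th, the gene of tyrosine hydroxylase, which makes the precursor of dopamine, stood at 31.1, 27.9, 23.3, 33.1 and 17.5 CPM in control primaries, 7.89, 2.75, 7.22 and 4.44 in KO primaries and 5.28, 4.14, 9.76 and 4.92 in KO metastases. Its log2 changes were -2.25 (SE 0.349, adjusted p = 0.00304) and -2.14 (SE 0.347, adjusted p = 0.00413), with no overlap between groups and the call kept in every fit without 1 library. Without the 3 controls with Xist the call of Th in KO metastases was lost (adjusted p = 0.0674), and so were both calls of Tnfrsf22 (adjusted p = 0.244 and 0.225) and of Bcl2l1 (adjusted p = 0.415 and 0.577). Tnfrsf22, a decoy receptor gene of the tumour necrosis factor family, stood at 3.69, 3.32, 4.94, 4.35 and 3.12 CPM in control primaries, 12.2, 6.80, 9.23 and 6.53 in KO primaries and 9.91, 11.4, 7.73 and 6.53 in KO metastases, with log2 changes of 1.16 (SE 0.252, adjusted p = 0.0225) and 1.20 (SE 0.252, adjusted p = 0.0191). Bcl2l1, the gene of the survival factor BCL-XL, stood at 157 ± 21.1 CPM (SD, n = 5) in control primaries, 104 ± 11.99 (SD, n = 4) in KO primaries and 107 ± 0.491 (SD, n = 4) in KO metastases, with log2 changes of -0.60 (SE 0.124, adjusted p = 0.0179) and -0.55 (SE 0.124, adjusted p = 0.0272). Tnfrsf22 lost its call in KO primaries without control primary 4, 6 or 7 or KO primary 3 or 6 (adjusted p up to 0.119) and in KO metastases without control primary 4 or 7 or KO metastasis 3 or 4 (adjusted p up to 0.0749). Bcl2l1 lost it in KO primaries without control primary 4, 6 or 7 or KO primary 4, 6 or 7 (adjusted p up to 0.106) and in KO metastases without control primary 4, 6 or 7 or any 1 metastasis (adjusted p up to 0.145).

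Genes that set or guard imprints were not called in any comparison by edgeR. Of 22 such genes 21 were tested; 4 had an unadjusted p below 0.05 in each comparison with control primaries, against 13.6% and 14.2% of all genes, and 0 between the KO groups, against 3.23%. DESeq2 called 2 higher in KO primaries (Eed and Uhrf1) and 3 in KO metastases (Ctcf, Eed and Uhrf1), where it called 1648 and 1671 genes in all. With limma voom 2 (Ctcf and Dnmt3a) and 1 (Ctcf) were called higher, among 3267 and 3822 genes in all. Dnmt1, the maintenance DNA methyltransferase, stood at 324 ± 91.6 CPM (SD, n = 5) in control primaries, 386 ± 46.8 (SD, n = 4) in KO primaries and 358 ± 85.7 (SD, n = 4) in KO metastases. Its partner Uhrf1 stood at 276 ± 44.1, 382 ± 49.1 and 365 ± 57.8 CPM, with log2 changes of 0.47 (SE 0.150, adjusted p = 0.133) and 0.40 (SE 0.150, adjusted p = 0.212). Zfp57 stood at 36.99 ± 8.22, 45.6 ± 4.90 and 37.3 ± 5.45 CPM, and its corepressor Trim28 at 440.1 ± 52.96, 484 ± 29.1 and 519.9 ± 89.2. Ctcf, which binds the unmethylated control region between Igf2 and H19, came nearest in KO metastases, with all KO libraries above all control primaries and log2 changes of 0.33 (SE 0.140, adjusted p = 0.293) and 0.51 (SE 0.140, adjusted p = 0.0733). These are transcript levels, and DNA methylation was not analysed here.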

How the data were processed

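Raw counts of reads by gene symbol were deposited for 13 libraries; per the submitters' processing notes the authors used STAR 2.4, HTSeq 0.6.1, DESeq2 and the build mm10, with no role given. Annotation release and strand setting: not given in the sources used here. Overlapping genes on opposite strands may therefore share reads. Per the labels' protocols, GFP-positive cells were sorted and libraries made with a TruSeq kit; no molecular identifiers are stated, so limits given for a count of 0 cover counting error only, while SEs and p-values rest on the spread between libraries. Total counts of 23.5 to 41.4 M per library set the precision of low genes.

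Groups were taken from the labels. A single model over all libraries was fitted in edgeR 4.0.16, run in R 4.3.3 (filterByExpr, TMM, quasi-likelihood F test, Benjamini-Hochberg over 22265 genes, called at an adjusted p below 0.05). The procedure was also run on counts simulated with the spread fitted to these libraries. That simulation held no libraries set apart by receptor genes or Xist, so it does not check the calls given here. Levels are TMM-scaled CPM and receptor sums plain CPM. The SE is the size of the fitted log2 change divided by the square root of its F statistic. It is thus no measure of spread separate from the test. Coordinates are from GENCODE on GRCm38. Members and lists were chosen with earlier results of these data known, so no list was tested. Called members, the member adjacent to each and members of clusters without a call are given by library, others by range. Alternatives were scaling, filters, DESeq2 1.42.0, limma 3.58.1 voom with quality weights for libraries, a replicate block and leaving out libraries.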

Additional observations from a re-analysis of the deposited data

Results flagged for a closer look

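A library stood apart from the rest of its group in 16 of the 120 member-by-group sets examined (40 members in 3 groups), by Dixon's criterion. For normally distributed values, chance gives about 1 in 20 such sets. Several of these levels were at or near 0 CPM and all members share the same libraries. That rate therefore does not apply as it stands, and the flags only describe the data. Of the 16, 9 were in a library above 100 CPM of receptor genes. Among control primaries, library 3 was high for Ddc (3.42 CPM, others 0.108 to 0.859), Slc22a18 (2.32, others 0 to 0.188), Rian (15.9, others 0.193 to 1.14), Mirg (3.00, others 0.0966 to 0.323) and Asb4 (3.38, others 0 to 0.418), and low for Ube3a (97.6, others 175 to 199). KO primary 7 was high for Rian (5.96 CPM, others 0.313 to 0.789), Mirg (1.16, others 0.0529 to 0.130) and Asb4 (1.84, others 0 to 0.185). Control primary 4 was high for Mkrn3 (38.2 CPM, others 13.6 to 18.5), and control primary 5 for Grb10 (7.94, others 1.06 to 2.85) and Zrsr1 (4.41, others 2.96 to 3.14). KO metastasis 3 was high for H19 (23.7 CPM, others 0.318 to 1.02), Nnat (1478, others 718 to 842) and Ppp1r9a (86.1, others 66.2 to 69.5), and KO metastasis 4 for Peg3 (219 CPM, others 124 to 138).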

How the results depend on the processing

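Of 2489 values of single genes under other settings, 2381 kept their side of the threshold, 61 lost a call, 47 gained one and 0 called values reversed. Values that were not called could change sign, as for Rian in KO primaries, with log2 changes of -2.53 to 1.44. Peg12 and Grb10 kept their calls in every setting run for both comparisons with control primaries. With DESeq2, 1648 genes were called in KO primaries against control primaries, 33 in KO metastases against KO primaries and 1671 in KO metastases against control primaries, and 8 imprinted genes in the first. With limma voom and its quality weights these counts of genes were 3267, 2 and 3822, and 13 and 14 imprinted genes were called in the comparisons with control primaries. Members gained with it in KO primaries were H19, Igf2, Airn, Blcap, Peg3, Usp29, Nap1l5 and Sfmbt2. In KO metastases they were Mkrn3, Igf2, Airn, Peg3, Usp29, H13 and Sfmbt2. A mean of at least 1 CPM as the filter gave 8 of 35 imprinted genes in KO primaries, where 911 of 15176 genes were called. KO metastases against KO primaries gave 0 genes with library totals only, 0 with the compared groups alone and 2 with no filter. Without the 4 libraries rich in receptor genes the counts of genes were 1427, 5 and 1274. Without the 3 controls with Xist they were 138 and 100 against control primaries, with 2 imprinted genes in each; fewer libraries enter that fit. Leaving out 1 library at a time gave 277 to 1032 genes in KO primaries, 369 to 1199 in KO metastases and 0 to 1 between the KO groups, and 4 to 9 imprinted genes in KO metastases. The cause of these shifts was not tested, also where fewer libraries enter.

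The replicate number as a block gave 8 of 40 imprinted genes in KO primaries, where 672 of 22265 genes were called. Between the KO groups it gave 0 genes. A block in the KO libraries alone, added after seeing the data, gave 10 genes there. H19 in KO metastases lost its call under the block (adjusted p = 0.119). Airn and Nap1l5 gained calls against control primaries in both KO groups and Mest in KO primaries (adjusted p = 0.0142 to 0.038), with no other member call changed, and 1 of 4 metastases correlated best with the primary of its own number. Same-numbered KO primaries and metastases correlated at 0.06 to 0.531 and others at -0.408 to 0.457. The main fit did not take the numbers as pairs.

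Depth limits the low members: Slc22a18, Ascl2, Dlk1, Mirg and Asb4 were near the limit of 3 counts in several libraries and varied widely between libraries; whether more depth would change their calls was not tested.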
